A study of Mus musculus with 3 samples.

Results

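The 5-hydroxymethylcytosine (5hmC) peaks described here are those that lie where the annotated spans of protein-coding genes overlap. They are the distinct autosomal intervals of a deposited peak list whose midpoint fell within 2 or more RefSeq protein-coding genes. They numbered 1889 of the 207188 distinct autosomal intervals, or 0.912% (Wilson interval 0.872 to 0.954%), and 1.41% of the 134148 that lay in any protein-coding gene. The series holds 5hmC maps of mouse bone marrow cells: 2 samples of a leukaemia named NIDF-AML, induced by FLT3-ITD together with NPMc, IDH2/R140Q and DNMT3A/R882H, and 1 sample of normal marrow. Sheared marrow DNA had its 5hmC tagged with an azide glucose and then biotin, and an avidin column enriched the tagged fragments for sequencing, as the labels' protocols describe.

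Both leukaemia samples carry the same list of 223267 lines, and both headers name index 4 as the treatment library. They name different control libraries, index 5 for replicate 1 and index 6 for replicate 2, although the lists are identical. No source used here says which of the 3 samples index 4 marks, so the peaks cannot be assigned to leukaemia or to normal marrow and the 2 were not compared. The control may likewise be another of the 3 5hmC libraries, in which case a peak would stand for an excess over that library, and a stretch with no peak could still hold 5hmC. The list was counted once, and no value below has a replicate. The lists give positions with no score, and read depth is unknown, so sequence without a peak is sequence where none was listed. Intervals are exact Poisson or Wilson intervals at 95%. They treat peaks as independent, although peaks cluster, and cover counting error only, so no p-value is given.

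5hmC is made from 5-methylcytosine by the TET enzymes and is common in the bodies of active genes. Genes overlap in a few arrangements. A gene can sit whole inside a longer host, often in an intron and on the other strand. Neighbours can run into each other tail to tail (convergent) or share their start region head to head (divergent), and gene clusters such as Ugt1a or the protocadherins join many alternative first exons to shared last exons, so that their spans are stacked. A peak in such a stretch cannot be given to one gene or the other.

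The sequence under some of these peaks is shown for promoter windows, which run from 250 bases before to 50 bases after a RefSeq start (assembly GRCm38.p6, the coordinates of mm10). They were chosen after their values were seen, to show a nested gene with many peaks, a divergent pair, a start inside an imprinted locus, a same-strand guest and a start region shared head to head. Capitals mark the bases inside the listed peak, whose edges are rounded to 8 or 16 bp beyond 67108864 bp. Each window lies on the strand given, read 5′ to 3′.
Gpr146, chr5:139389654-139389953, plus strand: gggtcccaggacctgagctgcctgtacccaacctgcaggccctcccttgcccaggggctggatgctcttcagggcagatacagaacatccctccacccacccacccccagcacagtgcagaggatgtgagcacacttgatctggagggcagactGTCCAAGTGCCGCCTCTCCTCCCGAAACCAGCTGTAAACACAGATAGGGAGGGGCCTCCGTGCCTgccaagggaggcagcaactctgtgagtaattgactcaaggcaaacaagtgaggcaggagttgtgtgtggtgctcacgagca
Sp110, chr1:85598761-85599060, minus strand: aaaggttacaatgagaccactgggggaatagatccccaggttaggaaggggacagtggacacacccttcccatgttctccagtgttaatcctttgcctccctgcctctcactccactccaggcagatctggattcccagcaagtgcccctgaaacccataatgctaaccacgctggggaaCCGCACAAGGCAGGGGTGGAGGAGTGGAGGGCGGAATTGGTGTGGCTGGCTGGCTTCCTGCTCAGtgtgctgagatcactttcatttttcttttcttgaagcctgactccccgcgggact
Commd1, chr11:22972817-22973116, minus strand: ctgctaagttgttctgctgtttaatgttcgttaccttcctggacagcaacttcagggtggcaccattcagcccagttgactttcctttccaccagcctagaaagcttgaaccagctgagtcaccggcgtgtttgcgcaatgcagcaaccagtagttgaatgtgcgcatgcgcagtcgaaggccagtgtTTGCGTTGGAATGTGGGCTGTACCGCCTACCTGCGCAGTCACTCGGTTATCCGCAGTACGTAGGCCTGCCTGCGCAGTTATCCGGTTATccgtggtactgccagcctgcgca
Insl3, chr8:71689002-71689301, plus strand: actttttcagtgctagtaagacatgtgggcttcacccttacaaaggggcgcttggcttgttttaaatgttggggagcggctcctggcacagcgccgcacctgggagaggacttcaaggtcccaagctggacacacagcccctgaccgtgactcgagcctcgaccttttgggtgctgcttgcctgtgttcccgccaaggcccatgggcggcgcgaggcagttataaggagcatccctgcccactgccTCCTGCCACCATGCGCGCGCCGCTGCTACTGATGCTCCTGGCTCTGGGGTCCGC
Dmrtc2, chr7:24869807-24870106, plus strand: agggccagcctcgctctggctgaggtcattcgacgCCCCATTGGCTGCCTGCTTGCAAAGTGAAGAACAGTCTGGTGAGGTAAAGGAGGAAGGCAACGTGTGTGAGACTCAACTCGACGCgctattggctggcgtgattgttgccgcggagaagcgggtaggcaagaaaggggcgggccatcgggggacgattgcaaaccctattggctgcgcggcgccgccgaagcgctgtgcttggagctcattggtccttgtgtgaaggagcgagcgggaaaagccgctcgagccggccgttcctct
Lypd4, chr7:24869642-24869941, minus strand: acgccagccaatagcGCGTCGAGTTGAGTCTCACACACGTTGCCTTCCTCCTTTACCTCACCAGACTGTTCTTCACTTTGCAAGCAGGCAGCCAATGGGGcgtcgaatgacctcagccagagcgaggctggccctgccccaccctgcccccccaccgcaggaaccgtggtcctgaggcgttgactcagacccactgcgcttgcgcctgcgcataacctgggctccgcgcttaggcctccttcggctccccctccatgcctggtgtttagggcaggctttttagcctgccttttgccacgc

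These windows differ in how many CG pairs, the usual site of methylation and hydroxymethylation, they hold. The window of Gpr146, a receptor gene nested in 3110082I17Rik, has 4 CG pairs, of which 3 lie in its 65 bp peak. That of Sp110, a nuclear body protein gene of immune cells that overlaps Sp140 head to head, has 5, of which 2 lie in the peak. The windows of Gpr146 and Sp110 belong to annotated starts inside the gene's span, not at its outer edge. The Sp110 peak shown thus lies within the stretch shared with Sp140, away from the outer start of either gene. The Commd1 window belongs to an alternative annotated start of Commd1, a gene of copper handling, which lies inside the imprinted gene Zrsr1 on the other strand. It has 17 CG pairs, with 8 of them in the 89 bp of the peak. Insl3, a testis hormone gene nested at the end of the cytokine kinase gene Jak3, has 16, with 5 in the 54 peak bases that the window holds. Dmrtc2 and Lypd4, both known from male germ cells, share 1 peak of 85 bp across a head-to-head overlap of 0.108 kb on chromosome 7 (24869817 to 24869924), and their windows hold 26 and 18 CG pairs.

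Few promoter windows held a peak, whether or not genes overlapped there. Each is only 300 bases long, so the low share alone does not mark promoters as poor in peaks. No promoter windows were available for chromosome 18. Of the 404 autosomal windows centred under 2 or more genes, 15 held a peak, or 3.71% (Wilson interval 2.26 to 6.03%), against 4.62% (4.19 to 5.10%) of 8088 windows centred under exactly 1 gene. The share was 3.19% of the 11593 windows centred under no gene and 3.78% of all 20085, close to that of overlaps. In all, 27 windows held a peak of the overlap set. Their median was 7 CG pairs, as it was for the 732 windows that held only other peaks, while the median over all 20085 windows was 14. At least 1 CG pair was present in 95.6% of all windows. The windows centred in an overlap had a median of 23 CG pairs and 62.5% G plus C, against 15 pairs and 58.7% for those centred under exactly 1 gene.

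Sequence under 2 or more genes carried more peaks per Mb than sequence under exactly 1 gene. The 11.1 Mb of overlap, in 2081 stretches, held 170 peaks per Mb (162 to 178), against 136 (135 to 137) over the 972 Mb under exactly 1 gene, a ratio of 1.25 (1.19 to 1.31). Sequence under no protein-coding gene had 51.4 per Mb (51.0 to 51.8). The excess came from stretches under exactly 2 genes, with 1844 peaks and 184 per Mb, a ratio of 1.35 (1.29 to 1.42) to sequence under exactly 1 gene. The 1.11 Mb under 3 or more genes held 45 peaks, or 40.4 per Mb (29.5 to 54.0), a ratio of 0.297 (0.216 to 0.397), with 20 peaks under exactly 3 genes and 25 under 4 or more.

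Density also changed with the length of the shared stretch. It was 213 per Mb (165 to 270) in the 986 stretches under 1 kb and 295 (268 to 324) in the 608 of 1 to 5 kb. It was 206 per Mb (192 to 222) in the 373 of 5 to 20 kb and 132 (119 to 147) in the 82 of 20 to 50 kb. In the 32 stretches over 50 kb it was 93.5 (83.1 to 105), below that of sequence under exactly 1 gene.

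**Figure D1:**
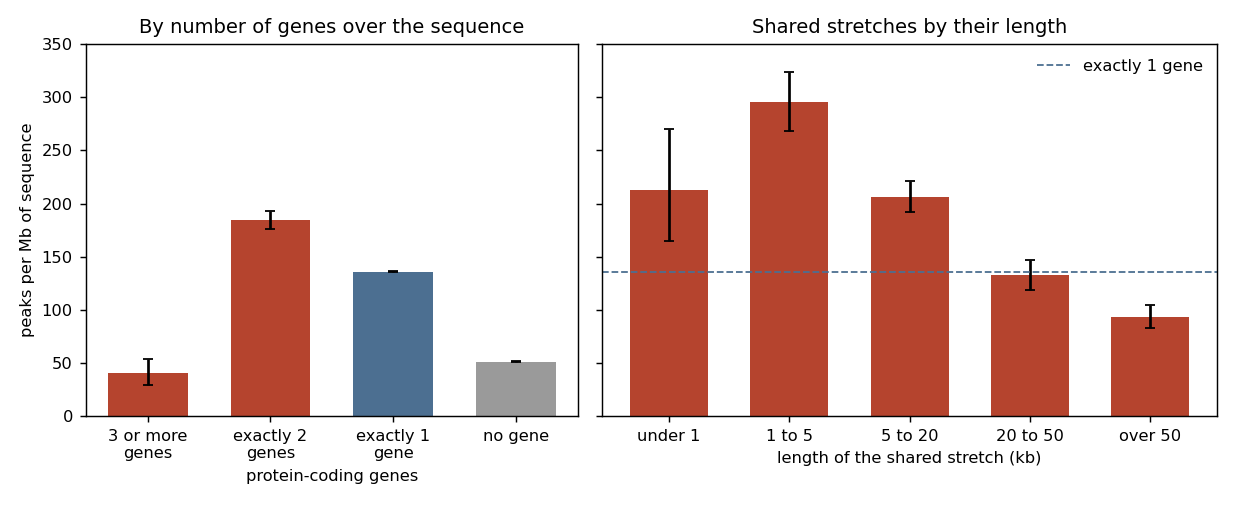
Peaks per Mb of autosomal sequence, with exact 95% Poisson intervals (counting error only), by the number of protein-coding genes over the sequence (left) and, for shared stretches, by their length in kb (right). Red bars are overlaps, blue is sequence under exactly 1 gene (136 per Mb, dashed line at right) and grey is sequence under none; the tallest bar is the 295 per Mb of stretches of 1 to 5 kb, and stretches over 50 kb fall below the line.

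The ratio differed between chromosomes. It was above 1 on 13 of the 19 autosomes, and its interval lay wholly above 1 on 11 of them. Chromosome 7 had the highest, with 299 peaks per Mb in overlaps against 152 under exactly 1 gene, a ratio of 1.97 (1.67 to 2.31), followed by chromosome 5 with 285 against 152 per Mb and a ratio of 1.88 (1.58 to 2.21). The interval lay wholly below 1 on chromosome 14, with 75.6 against 111 per Mb and a ratio of 0.679 (0.512 to 0.883), and on chromosome 18, with 47.4 against 118 per Mb and a ratio of 0.404 (0.306 to 0.523). Chromosome 18 carries the clustered protocadherin genes, which are adhesion genes of neurons, and has the most overlap sequence, 1.22 Mb. Without chromosome 18 the ratio over the other autosomes was 1.35.

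**Figure D2:**
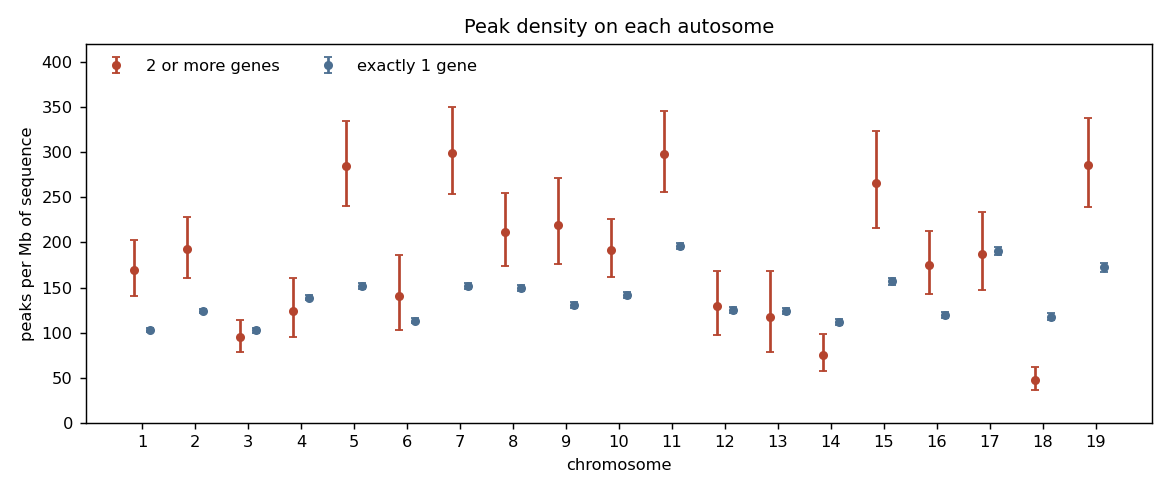
Peaks per Mb on each of the 19 autosomes in sequence under 2 or more protein-coding genes (red) and under exactly 1 (blue), with exact 95% Poisson intervals. Chromosomes 5, 7, 11 and 19 have overlap densities above 280 per Mb, and chromosomes 14 and 18, at 75.6 and 47.4 per Mb, have the lowest overlap densities.

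Overlaps lie near the edges of genes, where single-gene sequence too had more peaks than deep inside genes, with 180 per Mb within 500 bp of an edge and 61.7 beyond 50000 bp. The median distance of an overlap peak from the nearest edge of a protein-coding gene was 2241 bp, against 12641 bp for peaks under exactly 1 gene, and 52.9% of the overlap peaks lay within 2500 bp of an edge, against 16.1%. Compared at equal distance, overlaps had more peaks only in the class nearest the edge. Within 500 bp of an edge there were 264 per Mb in overlaps against 180 under exactly 1 gene, a ratio of 1.47 (1.31 to 1.63). At 500 to 1000 bp the ratio was 1.02 (0.888 to 1.17), at 1000 to 2500 bp 0.814 (0.736 to 0.899), and at 10000 to 50000 bp 0.694 (0.612 to 0.783). With the single-gene densities of each distance class applied to the overlap sequence, 2113 peaks would be counted. The 1889 found are 0.894 times that number (0.854 to 0.935), so that the direction is the opposite of the plain ratio.

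Setting overlaps against genes of like length gave either direction. With the single-gene densities taken from genes as long as the shorter gene of each overlap, the ratio was 0.852 (0.814 to 0.891), and with genes as long as the longer one it was 1.25 (1.20 to 1.31). When the longer gene exceeded 200 kb, overlaps held 95.4 peaks per Mb against 59.7 in single-gene sequence of genes of that length, a ratio of 1.60 (1.45 to 1.76). When it was 50 to 100 kb long the density was 186 per Mb in overlaps and 175 in single-gene sequence, a ratio of 1.06 (0.956 to 1.17). Whether overlaps carry more or fewer peaks than other gene sequence thus depends on what they are set against.

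Overlaps differed from single-gene sequence more next to gene starts than next to gene ends. The strand of 80.0% of the autosomal genes could be read from the RefSeq promoter table, and edges of the other genes were left out here. The genes left out include all those of chromosome 18. Within 500 bp of a gene start, overlaps held 244 peaks per Mb (202 to 291) and single-gene sequence 123 (116 to 131), a ratio of 1.98 (1.62 to 2.39). In single-gene sequence the density was higher farther from the start, at 193 per Mb from 500 to 1000 bp and 270 from 1000 to 2500 bp, while overlaps had 235 and 213 per Mb there. Within 500 bp of a gene end there were 298 peaks per Mb (255 to 346) in overlaps and 232 (222 to 243) in single-gene sequence, a ratio of 1.28 (1.09 to 1.50). From 1000 to 2500 bp the ratio was 0.789 (0.659 to 0.939) at starts and 0.946 (0.811 to 1.10) at ends. In an overlap, the nearest edge can be that of either gene, and sequence on its far side can still lie under the other gene. Single-gene sequence likewise includes sequence just outside the start or end of an overlapping gene.

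**Figure D3:**
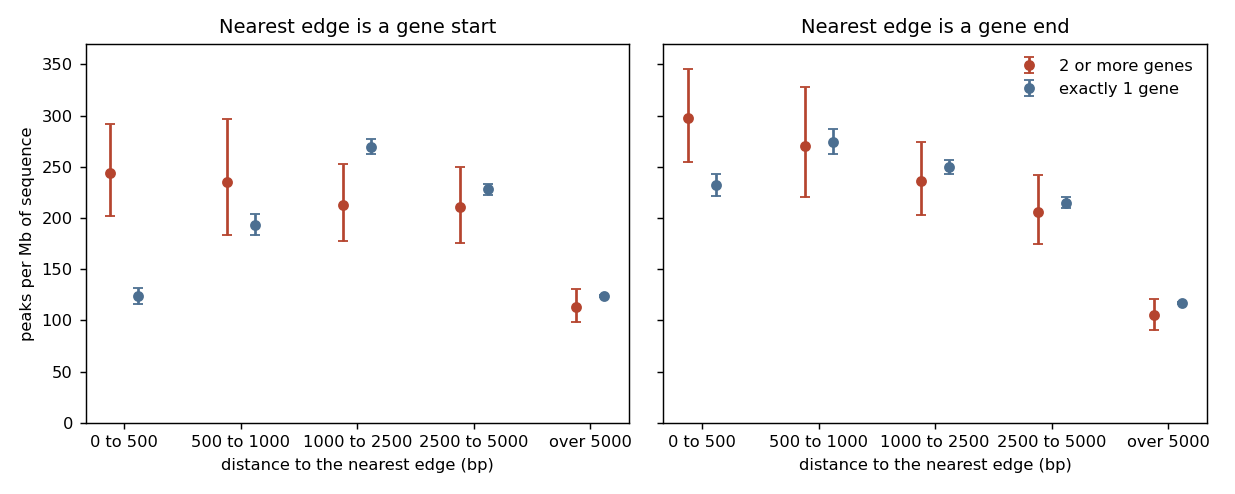
Peaks per Mb against the distance in bp to the nearest gene edge, where that edge is a gene start (left) or a gene end (right), for sequence under 2 or more genes (red) and under exactly 1 gene (blue), with exact 95% Poisson intervals. The densities within 500 bp of a start are 244 and 123 per Mb and stand farthest apart, while the other classes lie closer together.

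Density differed with the arrangement of the genes. Taking only pairs whose span is shared by no other gene, 483 were nested, 1442 overlapped in part and 3 had the same span. The 733 peaks of partial overlaps lay at 203 per Mb (189 to 219) and the 984 of nested genes at 167 (157 to 178), a ratio of 1.22 (1.11 to 1.34). Partial overlaps were shorter, with a median shared span of 0.574 kb against 5.16 kb for nested pairs. Density also changed with length, and arrangement was not separated from length here. The 3 pairs with the same span, such as Mfrp with C1qtnf5, held 15 peaks, or 523 per Mb (293 to 863). Among nested genes with known strands, those on the strand opposite to the host held 179 per Mb (163 to 197) and those on the host's strand 101 (86.6 to 118), a ratio of 1.77 (1.48 to 2.13). The same-strand class includes Schip1, 0.562 Mb long and counted within the joint gene model Iqschfp. Without it that class had 133 per Mb, and the ratio was 1.35 (1.12 to 1.64). Among partial overlaps with known strands, convergent pairs held 220 per Mb (197 to 244) and divergent pairs 178 (152 to 207), a ratio of 1.23 (1.02 to 1.49). Strand was not known for 171 nested pairs, at 211 per Mb (190 to 233), and 422 partial pairs, at 216 (186 to 249). The contrasts by strand leave these pairs out.

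Pooled over loci, shared sequence was denser than the rest of the same genes. Over all overlaps it held 170 peaks per Mb, and the parts of these genes that no other gene covers held 144 (142 to 145), a ratio of 1.18 (1.13 to 1.24). For nested genes the shared spans held 167 per Mb and the rest of their hosts 89.0 (86.7 to 91.4), a ratio of 1.87 (1.75 to 2.01). The ratio was 2.19 (1.97 to 2.43) for guests on the opposite strand and 1.19 (1.01 to 1.39) for guests on the host's strand. It was 1.27 (1.14 to 1.42) for convergent and 1.14 (0.973 to 1.33) for divergent pairs. Where strand was not known it was 2.07 (1.85 to 2.31) for nested and 1.07 (0.920 to 1.23) for partial pairs. On 82 same-strand partial overlaps there were 27 peaks and a ratio of 0.963 (0.630 to 1.41). All these ratios pool peaks and sequence over loci, so long genes weigh most in the rest. Taken pair by pair, as given below, the shared span was denser in only 189 of 358 pairs.

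Pooled over hosts, host sequence was also denser close to the nested genes. Inside nested genes the density was 276 per Mb (242 to 313) in the outermost 1 kb, 234 at 1 to 2.5 kb, 156 at 5 to 10 kb and 36.8 (24.5 to 53.3) farther than 50 kb from an edge. In the host outside the nested gene it was 193 per Mb (165 to 224) in the first 1 kb, 171 at 2.5 to 5 kb, 136 at 10 to 50 kb and 57.0 (54.6 to 59.4) beyond 50 kb. Inside against outside, the ratio was 1.43 (1.17 to 1.75) in the first 1 kb, 1.04 (0.857 to 1.25) at 5 to 10 kb and 0.647 (0.429 to 0.937) beyond 50 kb. The peaks around a nested gene thus did not stop at its edge. Different hosts fill these classes, and only long ones reach the farthest. Single-gene sequence of genes over 200 kb had 59.7 per Mb, and nearness to a nested gene was not separated from host length.

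Of the 1928 pairs under exactly 2 genes, 599 had a peak in the shared span (31.1%): 281 had 1, 225 had 2 to 4, 71 had 5 to 9 and 22 had 10 or more. Overlapping pairs of any depth took in 3640 of the 20560 autosomal protein-coding genes (17.7%), and 1223 genes (5.95%) had a peak that lay in another gene too. A peak anywhere in the body was found for 2999 of the 3640 (82.4%), against 69.5% of all autosomal genes. The 10 pairs under exactly 2 genes with most peaks held 265 of the overlap peaks (14.03%) in 10.0% of the shared sequence. These pairs were ranked by their peaks, which by itself raises their share. Cdh23 with Vsir is not among them or in the classes of arrangement, because Gm17455 lies within their shared span and a short stretch there is under 3 genes.

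Vsir within Cdh23 had the most peaks. Vsir encodes VISTA, an immune checkpoint receptor of myeloid and T cells, and lies on the opposite strand within Cdh23, a cadherin of the inner ear. Their shared span on chromosome 10 (60346851 to 60430294) held 57 peaks in 83.4 kb, or 0.683 per kb, and the other 310 kb of Cdh23 held 73, or 0.235 per kb. The ratio was 2.90 (2.02 to 4.16). The rest of Cdh23 was uneven: the 44.1 kb below Vsir in coordinate held 37 peaks, or 0.839 per kb, and the 266 kb above it held 36, or 0.135 per kb. Vsir was thus denser than the long side of its host and not than the short side.

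Sla encodes the Src-like adaptor, which dampens antigen receptor signalling in lymphocytes, and Tg is thyroglobulin, the hormone precursor of the thyroid. The shared span on chromosome 15 (66780819 to 66831829) held 33 peaks in 51.0 kb, or 0.647 per kb, against 36 in the other 129 kb of Tg, or 0.279 per kb, a ratio of 2.32 (1.40 to 3.82). Flrt1, an adhesion protein gene, shared 52 peaks over 78.7 kb with its host Macrod1 on chromosome 19 (7087464 to 7166183), at 0.661 per kb against 0.383 in the rest of Macrod1, a ratio of 1.72 (1.04 to 2.92). Filip1l in Cmss1 on chromosome 16 (57353277 to 57572804) had 51 peaks over 220 kb. Its 0.232 per kb did not differ from the 0.199 per kb of the rest of Cmss1 beyond counting error, with a ratio of 1.17 (0.662 to 2.15). Both flanks of Flrt1 and of Sla in their hosts had fewer peaks per kb than the nested gene. Around Flrt1 there were 0.358 and 0.408 per kb (11 and 13 peaks), and around Sla 0.263 and 0.371 per kb (29 and 7 peaks). The flanks of Filip1l had 0.293 and 0.0587 per kb (15 and 2 peaks). No intervals were computed for single flanks, and some counts are small.

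Sp140 and Sp110, paralogous nuclear body genes, overlapped head to head on chromosome 1 (85587491 to 85610850) and shared 20 peaks in 23.4 kb. Gpr146 shared 20 peaks with 3110082I17Rik in 18.7 kb on chromosome 5 (139377697 to 139396415), at 1.07 per kb against 0.903 per kb in the rest of the host. Angpt2, a ligand of the endothelial receptor TEK, shared 17 with Mcph1 in 51.3 kb, and Angptl2 shared 16 with Ralgps1 in 31.8 kb. Dhrs3, a retinaldehyde reductase gene, shared 16 with Vps13d in 35.7 kb. The intervals of the ratio to the rest of the same genes included 1 for all 5 of these pairs.

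The other pairs among the 15 with most peaks included predicted gene models. Schip1 and the joint model Iqschfp shared 22 peaks in 562 kb on chromosome 3, only 0.0392 per kb. Gm5820 shared 20 with Arhgap26, a GTPase-activating protein gene, at 0.224 per kb against 0.231 per kb in the rest of Arhgap26. C130026I21Rik shared 18 with Gm38510 on chromosome 1 (85241286 to 85282883), at 0.433 per kb against 0.0934, a ratio of 4.64 (1.98 to 11.7). Predicted models can have near-identical copies, so their counts are uncertain. The remaining 3 pairs were Gm37013 with Gm38666, Gm37013 with Gm38667, and Gm38666 with Gm38667, models that each span the protocadherin clusters of chromosome 18, and they shared the same 19 peaks.

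The pairs with most peaks per kb, among those with at least 5 peaks and 2 kb, were short. Apobec3, a cytidine deaminase that restricts retroviruses, and Cbx7, a Polycomb protein gene, met tail to tail on chromosome 15 (79915804 to 79918218) and shared 5 peaks in 2.42 kb. This is 2.07 per kb, against 0.443 per kb in the rest of both genes, a ratio of 4.67 (1.43 to 12). Bak1, an effector of apoptosis, shared 9 in 8.82 kb with Ggnbp1, or 1.02 per kb. Rassf5, a Ras effector of lymphocytes, and the translation factor gene Eif2d shared 12 in 11.2 kb, or 1.07 per kb. Others of this kind were Il4i1b with Il4i1, C130050O18Rik and Gpr146 with 3110082I17Rik, 6330409D20Rik with Sh2d3c, Smim5 with Recql5 and Cog1 with Fam104a, at 0.998 to 1.11 per kb. Of the pairs named here, all but Cbx7 with Apobec3 had ratio intervals that included 1.

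**Figure D4:**
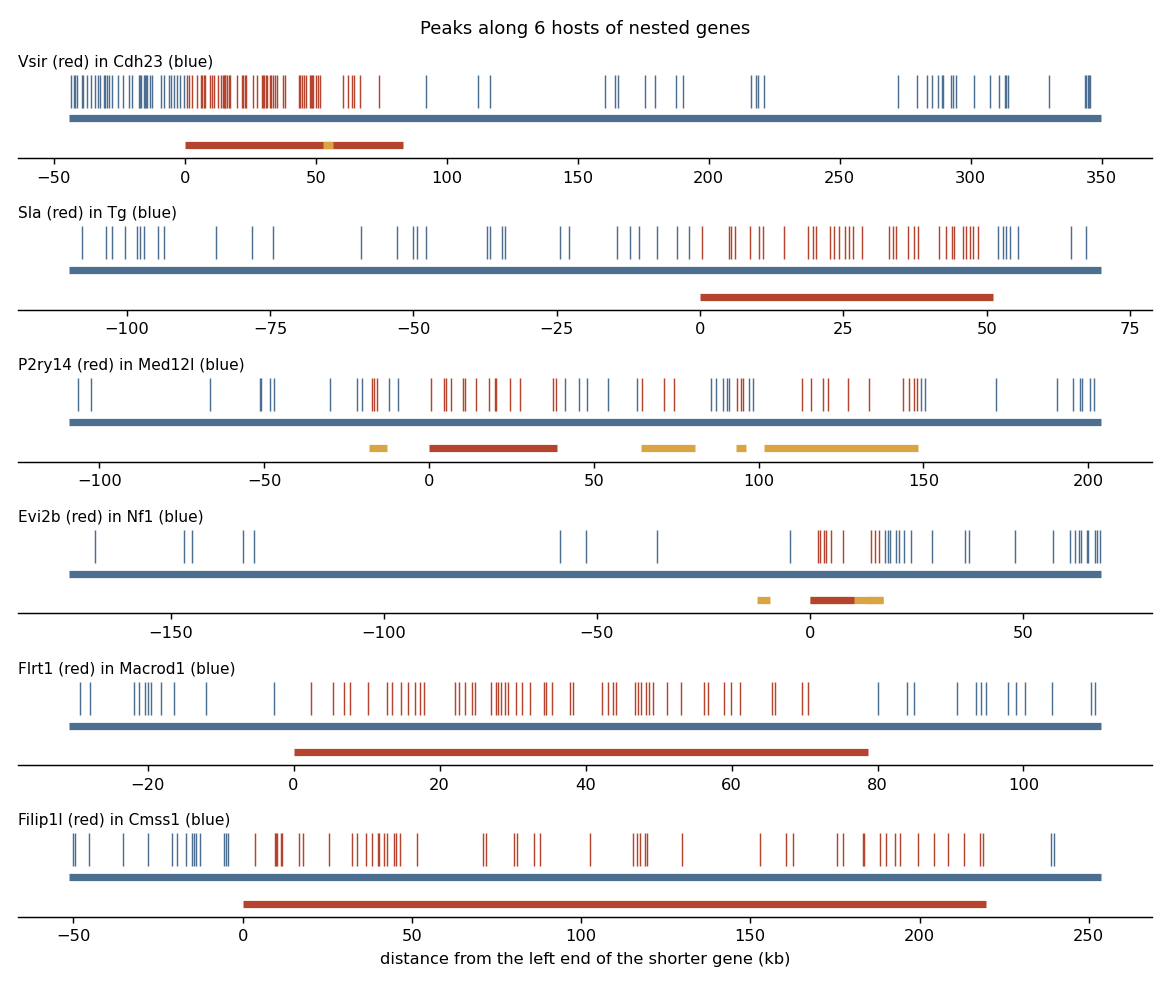
Peaks (upper ticks) along 6 host genes (blue bars), by distance in kb from the left end of the named nested gene (red bar), with other nested genes in yellow; red ticks lie in a nested gene and blue ticks in the host alone. Vsir holds 57 peaks, Sla 33, P2ry14 14, Evi2b 6, Flrt1 52 and Filip1l 51, and peaks stand on both sides of each nested gene.

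Hosts with several guests gave further cases, chosen after their values were seen. Med12l, a Mediator subunit paralogue on chromosome 3 (59005419 to 59318446), holds several receptor genes. P2ry14, a UDP-glucose receptor gene, shared 14 peaks with it, P2ry12, the ADP receptor gene of platelets, 10, and P2ry13 and Gpr171 shared 3 each. The 14 peaks of P2ry14 lay in 38.9 kb, or 0.360 per kb, against 33 in the 201 kb of Med12l that no other gene covers, or 0.164 per kb, a ratio of 2.19 (1.09 to 4.21). Nf1, which encodes the RAS inhibitor neurofibromin, holds Evi2a and Evi2b, named for retroviral insertions in mouse myeloid leukaemia, and Omg, a myelin glycoprotein gene. Evi2b had 6 peaks and Evi2a 3, all of them also within Evi2, a model that spans both, and Omg had none. The guests of Nf1 had 9 peaks in 20.3 kb, or 0.443 per kb, against 30 in the other 222 kb, or 0.135 per kb, a ratio of 3.27 (1.37 to 7.07). Of the 408 hosts with nested genes and at most 3 genes over any base, 220 had peaks both in a guest and outside, 115 only outside, 19 only in a guest and 54 in neither. These counts were not adjusted for length. Some hosts have little or no sequence outside their guests, such as Xntrpc with 0 kb and Tnfsfm13 with 0.685 kb, and some guests are short.

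Pair by pair, shared spans were denser about as often as not. Among 358 pairs with at least 5 kb on each side and at least 1 peak, the shared span was denser in 189 (52.8%) and the rest in 169. The median density was 0.147 per kb in the shared spans and 0.126 per kb in the rest. The interval of the ratio lay above 1 in 23 pairs and below 1 in 5, and these intervals were not adjusted for the number of pairs.

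Pairs that stood apart from their own remainder, named after their values were seen, included long hosts with few peaks. Bend5 had 9 peaks in 46.5 kb, and the other 1220 kb of its host Agbl4, a carboxypeptidase gene, had 5, a ratio of 47.2 (14.2 to 179). Dcp1b, an mRNA decapping gene, shared 9 peaks in 22.1 kb with Cacna1c, the L-type calcium channel gene, and the rest of both genes had 12 in 612 kb, a ratio of 20.7 (7.72 to 53.6). B2m, the light chain of MHC class I, had 5 peaks in 5.40 kb inside Patl2, which had 7 in the 42.4 kb that no other gene covers, a ratio of 5.61 (1.40 to 20.5). Nfyb, a subunit of the CCAAT-binding factor NF-Y, had 10 peaks in 15.5 kb inside Hcfc2, against 13 in 81.4 kb, a ratio of 4.05 (1.59 to 10.0). In the other direction, the 12.2 kb shared by Hipk2 and Tbxas1 had 0 peaks, while the rest of both genes had 152 in 385 kb. The predicted pair Gm16867 and Gm21451 shared 8 peaks in 87.0 kb against 34 in 50.3 kb, a ratio of 0.136 (0.0544 to 0.299).

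**Figure D5:**
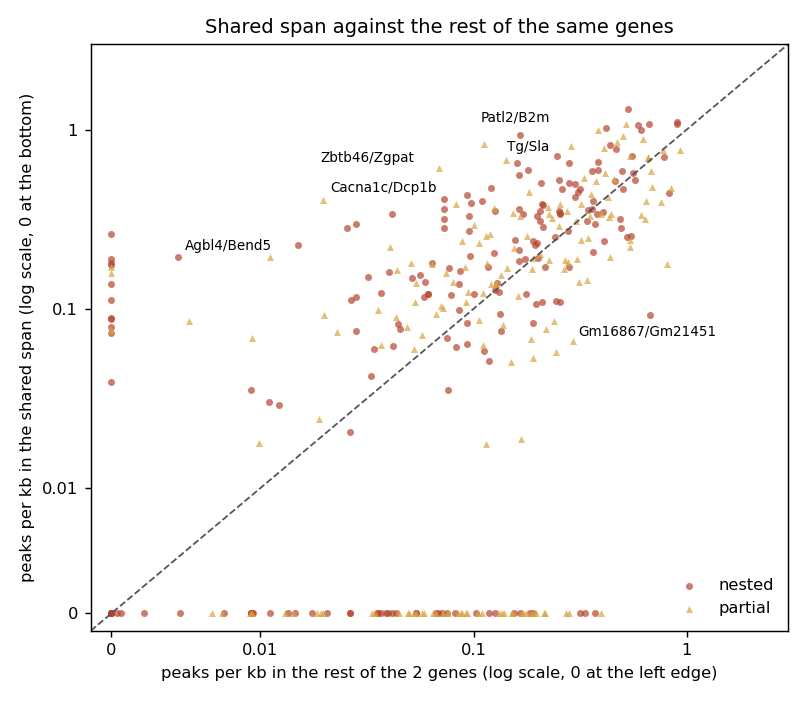
Peaks per kb in the shared span (vertical) against peaks per kb in the rest of the same genes (horizontal), both on log scales with 0 drawn at the edge, for the 358 pairs with at least 5 kb on each side; red circles are nested genes, yellow triangles partial overlaps and the dashed line marks equal density. In 189 pairs the point lies above the line, with Agbl4/Bend5 and Cacna1c/Dcp1b far above it and Gm16867/Gm21451 below.

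Averaged over their whole length, stacked gene clusters had few peaks. The shared stretches that include a clustered Pcdh gene covered 0.505 Mb and held 17 peaks, or 33.6 per Mb (19.6 to 53.9). Without them the density ratio of overlaps to single-gene sequence was 1.30 (1.24 to 1.36). Of the 22 stretches under 3 or more genes that held a peak, 16 were of the Pcdh or Ugt1a clusters or under the models that span Pcdh. The deepest stretch with a peak lay under 24 genes (chromosome 18, 37819546 to 37841863), from Pcdhga1 to Pcdhgc5 with 3 predicted models, and held 6 peaks in 22.3 kb. The next held 4 peaks in 4.47 kb under 23 genes. Both stretches were denser than sequence under exactly 1 gene, at 136 per Mb, though on few peaks. Those under 22, 21 and 19 genes held 1 each. The 6 longest shared spans with 0 peaks were all the same 195 kb of chromosome 18 (36992467 to 37187657). They were those of Pcdha8 with other genes of its cluster or models that span it. The Ugt1a cluster, which encodes enzymes that attach glucuronic acid to drugs and bilirubin, held 10 peaks in 0.149 Mb, or 67.0 per Mb (32.1 to 123). Pairs under exactly 2 genes with over 100 kb and 0 peaks were Iqschfp with Iqcj, Ctnna3 with Lrrtm3, Csmd1 with C030002A05Rik and Lsamp with Gm52229, also chosen after their values were seen.

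Few genes of the 7 lists, blood lineages or not, were part of an overlap, and no test was made of this. Of 37 autosomal genes of granulocytes and monocytes, 0 lay in an overlapping pair, against 17.7% of all autosomal genes. A peak anywhere in the body was found for 34 of these 37, 27 of 30 stem and progenitor factors, 23 of 25 B lineage, 23 of 29 T and NK lineage, 16 of 22 erythroid, 14 of 21 stroma and endothelium and 10 of 19 neuronal genes, against 69.5% of all autosomal genes. Of 30 stem and progenitor factors, 3 overlapped another gene and 2 (6.67%) shared a peak with it, near the 5.95% of all autosomal genes. Runx2, a factor of bone and blood cells, shared 2 peaks with Supt3 in 37.7 kb, while the rest of both genes held 111, and Hoxb4 shared 1 with Hoxb3. Lyl1 met Nfix over only 0.005 kb with no peak. Of 25 B lineage genes, Rag2, a subunit of the V(D)J recombinase, shared 2 peaks with Iftap in 4.32 kb, and Cd72 shared none with Tesk1 in 0.352 kb. Of 29 T and NK lineage genes, Cd247 and Tcf7 overlapped a neighbour with no peak, over 6.00 and 0.332 kb. So did Sptb (0.002 kb) and Epb41 (0.544 kb) of 22 erythroid genes and Syt1 (1.12 kb) and Grin1 (0.017 kb) of 19 neuronal genes. Most of these spans are too short for the absence of a peak to be informative. Of 21 stroma and endothelium genes only Runx2, which is in both lists, was in an overlap.

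Overlap peaks were listed more than once far more often than others. Of the 1889 intervals, 1081 (57.2%, Wilson interval 55.0 to 59.4%) occurred on more than 1 line, against 7.81% (7.67 to 7.96%) of those under exactly 1 gene and 2.67% under none. Under exactly 2 genes, 52.9% were on 2 lines and 43.6% on 1, and under 3 or more genes 60.0% were on 3 or more lines. Repeats were most common for guests on the strand opposite to their host, at 76.9%, and reached 63.5% in divergent but 35.6% in convergent pairs. The headers name a limit of sites per gene and a padding of 5000 bp upstream of genes. How the caller used them was not tested. With every line counted, the density ratio of overlaps to single-gene sequence was 2.05, and the ratio at equal distance from gene edges was 1.37, against 1.25 and 0.894 with each interval counted once. The median width was 65 bp under 2 or more genes and under exactly 1, and the median distance to the nearest other peak was 984 bp against 1000 bp.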

How the data were processed

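Peaks were called by the authors with PICS, a model-based caller for ChIP-seq, per the file headers. Their build, mm10, is from the submitters' processing notes, and no source used here names the aligner. The deposited lists hold only positions, a start and an end for each peak, and both are the same line by line. Of the lines, 6.63% repeat an earlier one, and each interval was counted once. Starts were read as 0-based.

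Gene spans came from a RefSeq table of GRCm38.p6, without 108 models on scaffolds. The table gives 1 span per gene and no exons. A peak belonged to every gene that held its midpoint, and chromosomes were divided into stretches with a constant set of genes. Python 3.11.15, pandas 2.3.3 and scipy 1.17.1 were used, and the counting was tested on simulated data. Ratios of densities have exact conditional intervals.

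The members and lists were chosen with earlier results of these data known. Pairs were named by rule: the 15 with most peaks, the 10 with most peaks per kb, the 6 longest with 0 peaks, the 5 deepest stretches, and pairs of 7 gene lists. A pair among the 10 is not reported here. Others are marked as chosen after their values were seen.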

Additional observations from a re-analysis of the deposited data

Results flagged for a closer look

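Chromosome X, which the comparisons leave out, also had peaks in overlaps, 12 under 2 or more protein-coding genes. Over the 0.374 Mb of overlap on X this is a density of 32.1 per Mb (16.6 to 56.1, exact Poisson). Single-gene sequence of X had 11.9 per Mb, which gives a ratio of 2.69 (1.38 to 4.74). Tmem29 with Apex2 and Nhsl2 with Rtl5 shared 3 peaks each, and Ikbkg, a regulator of NF-kB signalling, shared 2 with G6pdx, the glucose-6-phosphate dehydrogenase gene.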

How the results depend on the processing

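The density ratio of 1.25 stayed above 1 in all 13 alternatives run. It was 2.05 with repeated lines kept, 1.35 without predicted gene models and 1.35 for exactly 2 genes. Leaving out 1 autosome at a time gave 1.21 (without chromosome 7) to 1.35 (without chromosome 18). The 1889 peaks became 3357 with repeated lines kept and 10430 with all annotated genes. The ratio of 1.18 to the rest of the same genes was 1.86 with repeated lines kept and 1.87 for nested pairs. The ratio at equal distance from gene edges, 0.894, was 1.37 with repeated lines kept and 1.25 with classes of the longer gene's length, both in the other direction, and 0.852 with classes of the shorter gene's length. Why lines repeat was not tested. The classes of gene length and the ratio without Pcdh stretches were added after the data were seen. With replicate 1 or replicate 2 left out the ratio was 1.25 both times, which says nothing of stability, since both carry 1 list. No paired analysis was possible because the result comes from 1 list with no test.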
